A study of Drosophila melanogaster with 2 samples.

Results

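The genes described here encode the cytosolic translation factors of Drosophila melanogaster: all 54 protein-coding genes whose symbol starts with eIF, eEF or eRF, of 13986 protein-coding genes in the annotation. They comprise 44 initiation factor genes, 8 elongation factor genes and 2 release factor genes. The members were taken by name, and the rule uses no measured value, although the family was picked for study with earlier results of these data known. For each gene the question was whether the GFP-tagged protein of the study had a peak of chromatin immunoprecipitation followed by sequencing (ChIP-seq) at the promoter, how strong it was, and whether both replicates showed it.

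Chromatin came from whole embryos of both sexes, 0 to 24 h old, of a single MiMIC line, in which an exon coding for eGFP sits in an intron so that the host gene makes a GFP fusion protein. It was sonicated to 200 to 800 bp and precipitated with an antibody to GFP, according to the description, while the antibody field names Side. The 2 samples are biological replicates of 1 group, both carrying the fusion, and no second condition was given. The labels call the strain and fusion Side and the insertion target Sidpn. In the annotation these are different genes (side, an adhesion protein gene of motor axon guidance, and Sidpn, a HES family repressor gene), and the labels leave unsettled which of the 2 carries the tag. The best promoter peak of side had a signal of 44.5 (rank 9753) and that of Sidpn 38.9 (rank 11611).

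Translation begins when eIF2 brings the initiator tRNA to the small ribosomal subunit, eIF3 holds that complex together, and the eIF4 proteins load it at the mRNA cap. Elongation factors then deliver aminoacyl-tRNAs and move the ribosome along, and release factors free the finished chain at a stop codon. Every cell needs most of these proteins, and their genes are known for steady expression through embryonic growth, while some have copies known mainly from the testis.

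The deposited candidate lists of replicate 1, replicate 2 and their pool each held 30000 peaks, ranked here by the signal that the authors' peak caller gave each peak (a value on a scale that is not stated). According to the file records they hold background as well as peaks, so a weak candidate need not be a true peak. The pooled list ended at a signal of 18.8, so weaker peaks are not in it. The authors' list past the irreproducible discovery rate (IDR) threshold held 4097 peaks. These were the strongest of the pooled list, down to a signal of 81.5, and are called thresholded below. A peak was placed at a gene when its summit lay within 500 bp of an annotated start site. Depth is unknown for both replicates, so no counting interval is given. Signals of different lists are not on a shared scale, and ranks are used between them.

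Of the 54 translation factor genes, 22 (40.7%) had a thresholded promoter summit, against 2734 of all 13986 protein-coding genes (19.5%). A candidate summit of any strength was present at 42 of the 54 (77.8%), against 7757 of all protein-coding genes (55.5%). Among genes with a candidate, 52.4% of the translation factor genes and 35.2% of all protein-coding genes passed the threshold. Median pooled signal over genes with a candidate was 84.7 for the 42 translation factor genes (range 20.2 to 675) and 60.1 for all 7757 genes. These shares are a description with no test: the design has 1 group, and genes that share a promoter are not independent.

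The strongest peaks lay at eIF6, eEF1gamma and eIF1, ranked 57, 128 and 289 in the pooled list. The summit at eIF1 was nearer to the ribosomal protein gene RpL28 (42 bp) than to eIF1 (339 bp). That at eIF6 was nearer to an antisense RNA gene (69 bp) than to eIF6 (98 bp). Neither peak can be assigned to the translation factor gene alone. eIF6 encodes the factor that keeps the large ribosomal subunit from joining the small one too early, eEF1gamma a subunit of the exchange complex that recharges eEF1A, and eIF1 the factor that guards start codon choice. Just inside the threshold lay eRF3 (82.7, rank 4019), and just outside it eIF2alpha (81.1, rank 4124). The plot of ranks by gene shows the whole family in order of role.

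**Figure D1:**
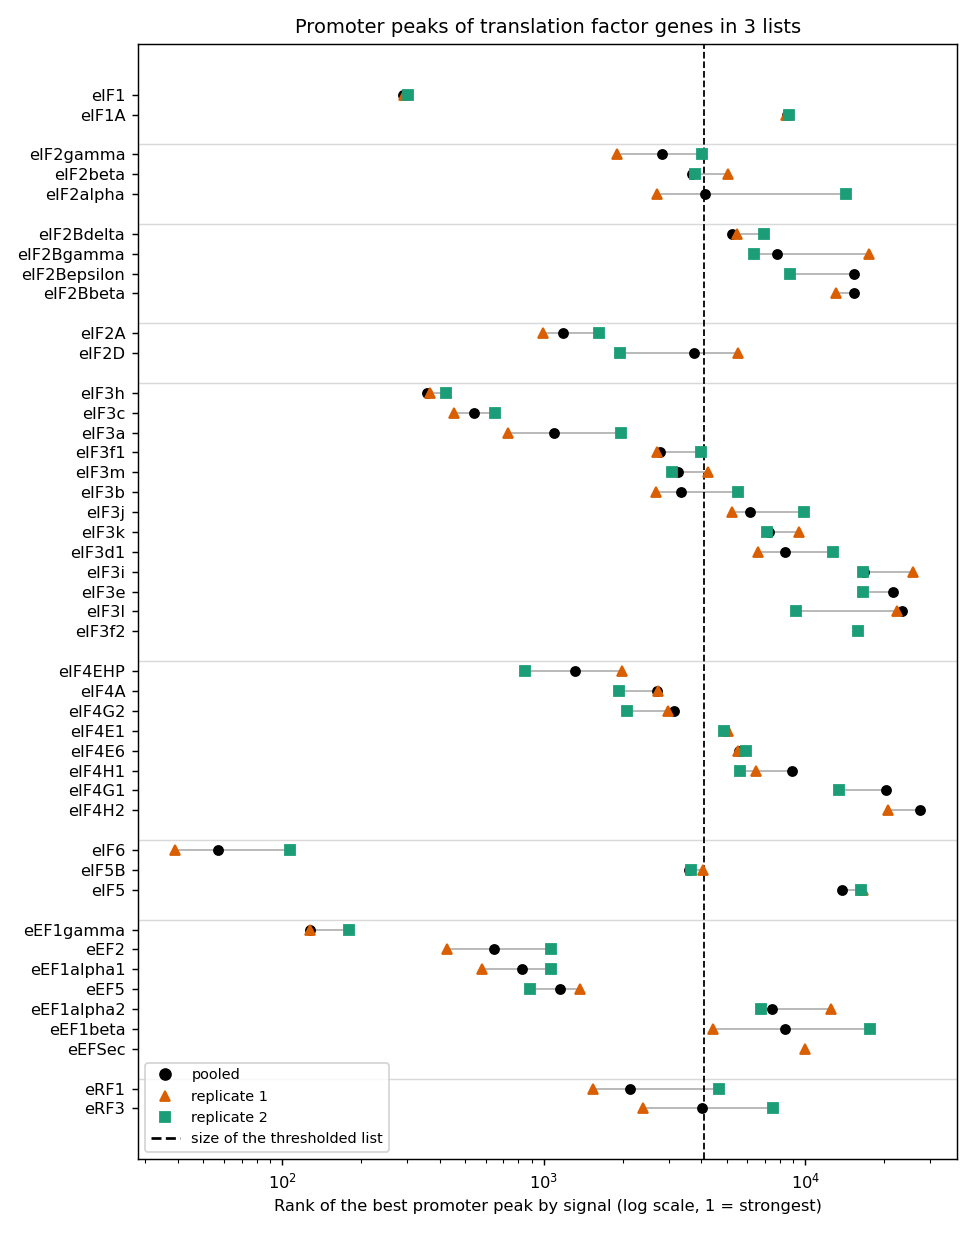
Rank of the best promoter peak (log scale, 1 is the strongest) of each translation factor gene in the pooled list (black circles), replicate 1 (orange triangles) and replicate 2 (green squares), grouped by role; the dashed line marks the 4097 peaks of the thresholded list. eIF6, eEF1gamma, eIF1, eIF3h, eIF3c and eEF2 lie left of the line in all 3 lists, and 10 genes with no candidate in any list are not drawn.

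Promoter sequences are shown for genes whose summits carry the DNA replication-related element (DRE), an 8-base palindrome known as the site of the factor DREF at many growth and housekeeping genes, because, of the motifs searched, it differed most in share from all genes. Each window is at most 60 bases to either side of the summit, shortened so that it holds at most 30 bases of annotated exons. Sequences are from Release 6 of the genome (dm6), read 5' to 3' on the strand of the gene, with DRE matches in capitals and, at eIF2alpha, also the reverse complement of the motif 1 core. The windows are those of eEF1gamma (chr3R:29220084-29220201, plus strand), eIF1 (chr3L:3222942-3223062, plus strand), eIF3a (chr3R:4433908-4433994, minus strand), eRF1 (chr3L:20348259-20348379, plus strand), eIF3f1 (chr3R:4714153-4714231, minus strand) and eIF2gamma (chr3R:15263429-15263523, minus strand). The window of eIF2alpha (chrX:16446964-16447068, minus strand) belongs to the gene just below the threshold. A DRE also lay within 100 bp of the summit at eIF6, eIF2A, eIF1A and eIF2Bbeta; their windows are not printed, and the distances of the thresholded genes eIF6 and eIF2A are given with the others.
eEF1gamma: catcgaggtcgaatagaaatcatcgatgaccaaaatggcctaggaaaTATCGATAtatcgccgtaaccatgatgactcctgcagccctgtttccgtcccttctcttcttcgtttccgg
eIF1: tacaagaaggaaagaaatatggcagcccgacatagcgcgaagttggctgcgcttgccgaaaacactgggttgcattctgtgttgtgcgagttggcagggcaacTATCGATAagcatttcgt
eIF3a: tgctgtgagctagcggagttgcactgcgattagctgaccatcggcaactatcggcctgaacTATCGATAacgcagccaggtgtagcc
eRF1: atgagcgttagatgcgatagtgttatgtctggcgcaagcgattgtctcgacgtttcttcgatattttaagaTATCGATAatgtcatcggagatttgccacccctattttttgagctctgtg
eIF3f1: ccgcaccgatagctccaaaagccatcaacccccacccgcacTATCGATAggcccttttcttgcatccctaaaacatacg
eIF2gamma: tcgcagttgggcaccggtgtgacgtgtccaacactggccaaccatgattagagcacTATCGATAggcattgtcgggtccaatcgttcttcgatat
eIF2alpha: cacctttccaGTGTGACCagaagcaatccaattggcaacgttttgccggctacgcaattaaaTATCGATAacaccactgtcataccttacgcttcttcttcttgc

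For contrast, the next windows show a strong peak with a different match and one with none of the motifs searched. eIF3h (chr2L:5052480-5052600, minus strand) holds the HES site CACGCG, a sequence bound by hairy-related repressors, in capitals, and no DRE. eIF4EHP (chr3R:24109032-24109152, minus strand) holds no match in the printed stretch.
eIF3h: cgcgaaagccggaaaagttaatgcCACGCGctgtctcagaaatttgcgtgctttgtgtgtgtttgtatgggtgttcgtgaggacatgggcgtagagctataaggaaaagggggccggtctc
eIF4EHP: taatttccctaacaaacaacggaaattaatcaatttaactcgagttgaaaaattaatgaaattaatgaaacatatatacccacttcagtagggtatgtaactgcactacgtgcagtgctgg

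The DRE (TATCGATA) lay within 100 bp of the thresholded summit at 8 of 22 translation factor genes (36.4%), against 255 of 2734 of all protein-coding genes with a thresholded promoter summit (9.33%). The 8 genes were eEF1gamma, eIF1, eIF2A, eIF2gamma, eIF3a, eIF3f1, eIF6 and eRF1. Among genes whose best candidate missed the threshold, 3 of 20 translation factor genes (15.0%) held a DRE there, against 399 of 5023 (7.94%). In a fixed window from 250 bases before to 50 after the outermost start site, which does not depend on any peak, 15 of 54 translation factor genes (27.8%) held a DRE, against 1308 of the 13968 promoters whose sequence could be read (9.36%). Among genes with a thresholded summit that window held a DRE at 8 of 22 (36.4%), against 400 of 2734 (14.6%). These were not the same 8 genes as at the summits: eIF3c and eIF4A held a DRE in the fixed window, and eIF1 and eIF2A did not. The element thus stood at translation factor promoters with and without a thresholded peak, and its share is given without a test.

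Distances from the DRE to the summit were taken only where it lay within 100 bp, so every distance was short by construction. The comparison with all genes, selected in the same way, rests on 8 distances and was not tested. The centre of the DRE was 0.5 bp upstream of the summit at eIF2gamma, 9.5 bp upstream at eEF1gamma, 15.5 bp upstream at eIF3f1 and 14.5 bp downstream at eRF1. It lay farther off at eIF3a (38.5 bp downstream), eIF1 (46.5 bp downstream) and eIF2A (49.5 bp upstream), and farthest at eIF6 (90.5 bp downstream). Of these 8 distances, 7 were within 50 bp (87.5%), all but that of eIF6, against 143 of 255 (56.1%) for all genes, and the median distance was 27.0 bp for the 8 genes and 44.5 bp for all genes.

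The other motifs rested on few matches near the summits, and for several of them the fixed promoter window gave another picture. The HES site CACGCG lay near 1 of 22 thresholded translation factor summits, that of eIF3h (4.55%), against 5.23% of all thresholded promoter summits. It lay near 5 of the 20 weaker ones (25%, against 6.57% of all genes with such summits), at eEF1beta, eIF2Bepsilon, eIF3d1, eIF3l and eIF4E6. In the fixed window of genes with a thresholded summit it was present at 3 of 22 (13.6%, against 6.88% of all genes). The E-box CACGTG was near 1 of 22, that of eEF2 (4.55%, against 3.04% of all genes), and in the fixed window of 3 of 22 (13.6%, against 5.27% of all genes). The motif 1 core GGTCACAC, a housekeeping promoter element, was near 3 of 22 (13.6%, against 6.25% of all genes), those of eEF1alpha1, eIF2A and eIF5B, and near 5 of the 20 weaker summits (25%, against 6.59% of all genes with such summits). In the fixed window of genes with a thresholded summit its share was lower than in all genes (1 of 22, 4.55%, against 11.3%).

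The GAGA sequence GAGAG was near 4 of 22 (18.2%, against 22.9% of all genes) and in the fixed window of 2 of 22 (9.09%, against 32% of all genes). TATAAA was near 2 of 22 (9.09%, against 27.4% of all genes), at eIF3a and eIF6, but in the fixed window it was present at 14 of 22 (63.6%, against 42.5% of all genes), so the 2 windows gave opposite directions. The 5 bases CTTTT, the core of the polypyrimidine initiator known from ribosomal protein genes, were sought anywhere in a short stretch around each start site. They were found on the coding strand at eIF3f1, eIF3i and eIF4A, 3 of 54 genes (5.56%), against 2.87% of all promoters. A match did not have to begin at the start site itself. All motifs but CTTTT were searched on both strands; TATCGATA and CACGTG read alike on both, and none of the motifs contains another. A match is a description of the sequence, not evidence of binding by a factor.

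**Figure D2:**
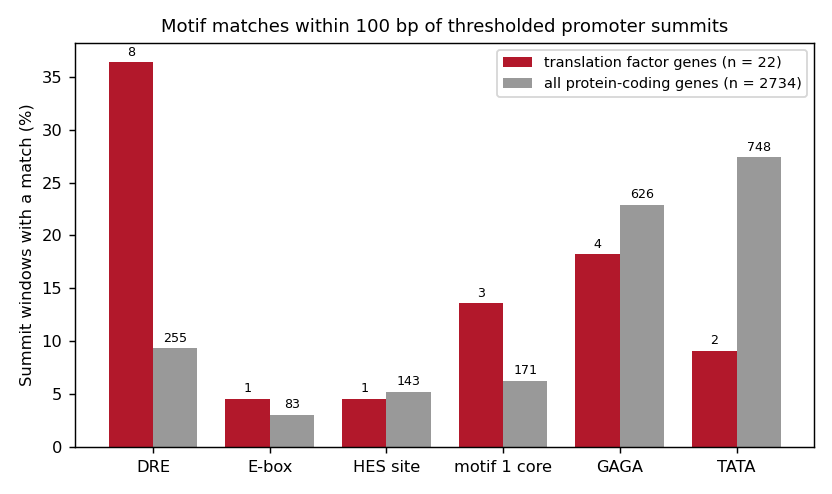
Percentage of thresholded promoter summits with each motif within 100 bp, for translation factor genes (red, n = 22) and all protein-coding genes (grey, n = 2734); the number above each bar counts genes. The DRE bar is at 36.4% for translation factor genes and 9.33% for all genes, while the HES site bars are at 4.55% and 5.23%.

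Elongation factor genes held 4 thresholded peaks among 8 genes. eEF1gamma had a signal of 258 in replicate 1 (rank 128), 201.1 in replicate 2 (rank 180) and 463 in the pool, at chr3R:29219950-29220289, with the summit 28 bp upstream of the start site. eEF2, the GTPase that moves the ribosome by a codon, had 152 (rank 425) and 84.5 (rank 1061) in the replicates and 231 in the pool (chr2L:21682054-21682282). eEF1alpha1, which brings aminoacyl-tRNA to the ribosome, had 134 (rank 579) and 84.0 (rank 1068) in the replicates and 207 in the pool (chr2R:11891949-11892169). Replicate 1 ranked each of these 3 genes higher than replicate 2 did.

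eEF5, the hypusine-bearing factor that relieves stalling, had 86.3 (rank 1375) in replicate 1 and 93.5 (rank 886) in replicate 2, with 173 in the pool and the summit 2 bp upstream of the start site. At eEF1alpha1 the 4 annotated start sites did not share the peak. The peak of 207 was 55 bp upstream of the third site, while the first and second had a best peak of 93.9 (rank 3283) and the fourth 68.4 (rank 5356). The remaining elongation genes were weak or had no peak. eEF1alpha2, a copy of eEF1alpha1, had 54.1 in the pool, and eEF1beta, another exchange subunit, had 50.03, with 43.2 in replicate 1 (rank 4425) and 14.6 in replicate 2 (rank 17691). The exchange subunit gene eEF1delta had no candidate in any list, and the selenocysteine factor gene eEFSec had one in replicate 1 alone (25.8, rank 9975).

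The release factor genes eRF1 and eRF3 both passed the threshold, each with a much better rank in replicate 1 than in replicate 2. eRF1, which reads stop codons, had 80.3 in replicate 1 (rank 1548) and 37.1 in replicate 2 (rank 4661), with 121 in the pool. eRF3, its GTPase partner, had 63.1 in replicate 1 (rank 2385) and 27.1 in replicate 2 (rank 7506), with 82.7 in the pool. In replicate 2 neither gene was among the 4097 strongest peaks.

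Genes of the factors that choose the start codon and bring the initiator tRNA were spread over the whole ranking. eIF1 had 183 in replicate 1 (rank 292) and 159 in replicate 2 (rank 303), with 348 in the pool (chr3L:3222883-3223152), while eIF1A, its partner on the small subunit, had 49.2 in the pool. The 3 subunits of eIF2 lay close to the threshold. eIF2gamma, the GTP-binding subunit, had 71.4 (rank 1901) and 40.4 (rank 4014) in the replicates and 103 in the pool. eIF2beta had 39.7 (rank 5037) and 42.0 (rank 3785) in the replicates and 87.4 in the pool. eIF2alpha, the subunit phosphorylated under stress, had 58.9 in replicate 1 (rank 2704) and 17.2 in replicate 2 (rank 14277), the widest gap between replicates of any of the 3.

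None of the 5 genes of eIF2B, the exchange factor that recharges eIF2, had a thresholded promoter summit. Pooled signals were 69.3 at eIF2Bdelta, 52.4 at eIF2Bgamma, and 31.6 at both eIF2Bepsilon and eIF2Bbeta, while eIF2Balpha had no candidate. Of these, eIF2Bepsilon had no candidate in replicate 1 and eIF2Bbeta none in replicate 2. A very strong peak nevertheless lay near eIF2Bbeta: the peak of Ugalt, a UDP-galactose transporter gene, ranked 2 in the pooled list with a signal of 1912 (chrX:2703684-2704092), 680 bp from the start site of eIF2Bbeta and so outside the promoter window. eIF2Bdelta lay 714 bp from a thresholded peak at CG30414 (89.5), and eIF2Bgamma 1256 bp from one at Vha36-1 and CG8187 (191).

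eIF2A and eIF2D, which can bring initiator tRNA without eIF2, both passed the threshold. eIF2A had 104 in replicate 1 (rank 990), 67.4 in replicate 2 (rank 1626) and 169 in the pool. eIF2D had 37.5 in replicate 1 (rank 5527), outside the 4097 strongest, but 61.8 in replicate 2 (rank 1952), and 86.7 in the pool.

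Of the 16 genes of eIF3, the scaffold of the initiation complex, 6 had a thresholded summit and 6 more a weaker candidate. eIF3h had the strongest, with 163 in replicate 1 (rank 366), 135 in replicate 2 (rank 422) and 305 in the pool (chr2L:5052355-5052588). Its summit lay 240 bp downstream of the nearest start site, and a further thresholded peak of lower signal (259.7, rank 510) lay nearer, with its summit 41 bp from the same start site. eIF3c, a core subunit, had 148 (rank 454) and 111 (rank 653) in the replicates and 253 in the pool, and eIF3a, the other large core subunit, 121 (rank 729) and 61.7 (rank 1965) in the replicates and 177 in the pool. In both replicates eIF3h, eIF3c and eIF3a were well inside the strongest 4097.

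The other 3 eIF3 peaks were close to the threshold. eIF3f1 had 58.8 (rank 2713) and 40.7 (rank 3985) in the replicates and 105 in the pool. eIF3m had 44.6 (rank 4235) and 47.1 (rank 3100), and 94.4 in the pool. eIF3b, an RNA-binding core subunit, had 59.0 (rank 2696) and 33.3 (rank 5543), and 92.6 in the pool. For eIF3b the best peaks of the replicates also differed in place. The best promoter peak of replicate 2 did not overlap the pooled one, and its summit was 771 bp away. A weaker pooled candidate (68.2, rank 5380), below the threshold, lay inside the gene, 256 bp from a start site. Replicate 1 also had a summit inside the gene, so the replicates differed in which peak was the strongest. The weaker eIF3 candidates were eIF3j (62.4), eIF3k (55.2), eIF3d1 (49.9), eIF3i (29.7), eIF3e (24.5) and eIF3l (23.0) in the pooled list.

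The cap-binding group eIF4 had 3 thresholded summits among 13 genes. eIF4EHP, a cap-binding repressor, had 69.5 in replicate 1 (rank 1998), 95.5 in replicate 2 (rank 851) and 160.2 in the pool. The helicase gene eIF4A had 58.6 (rank 2725) and 62.1 (rank 1940) in the replicates and 106 in the pool, and its summit lay 54 bp upstream of the innermost of 3 start sites. The outermost start site of eIF4A had a best peak of 44.6 (rank 9714). eIF4G2 had 55.4 (rank 2993) and 59.5 (rank 2082) in the replicates and 96.5 in the pool. These 3 genes ranked higher in replicate 2 than in replicate 1, the opposite of most of the family.

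The main cap-binding protein gene eIF4E1 had 39.6 in replicate 1 (rank 5053), 36.1 in replicate 2 (rank 4863) and 72.3 in the pool, outside the 4097 strongest in every list. Its paralog eIF4E6 had 66.7 in the pool. The helicase cofactor genes eIF4H1 and eIF4H2 had 47.8 and 20.2, and the scaffold gene eIF4G1, on chromosome 4, had 25.8 with no candidate in replicate 1. The cofactor gene eIF4B had no candidate, and the nearest pooled candidate was 590836 bp from its start site.

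The late-acting factors differed widely. eIF6 had 445 in replicate 1 (rank 39), 240 in replicate 2 (rank 107) and 675 in the pool (chr2R:23850258-23850566). eIF5B, the GTPase of subunit joining, had 45.9 (rank 4047) and 42.8 (rank 3662) in the replicates and 88.8 in the pool, just inside the threshold in every list. eIF5, which activates the GTPase of eIF2, had 34.2 in the pool, with 18.7 in replicate 1 and 15.5 in replicate 2.

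**Figure D3:**
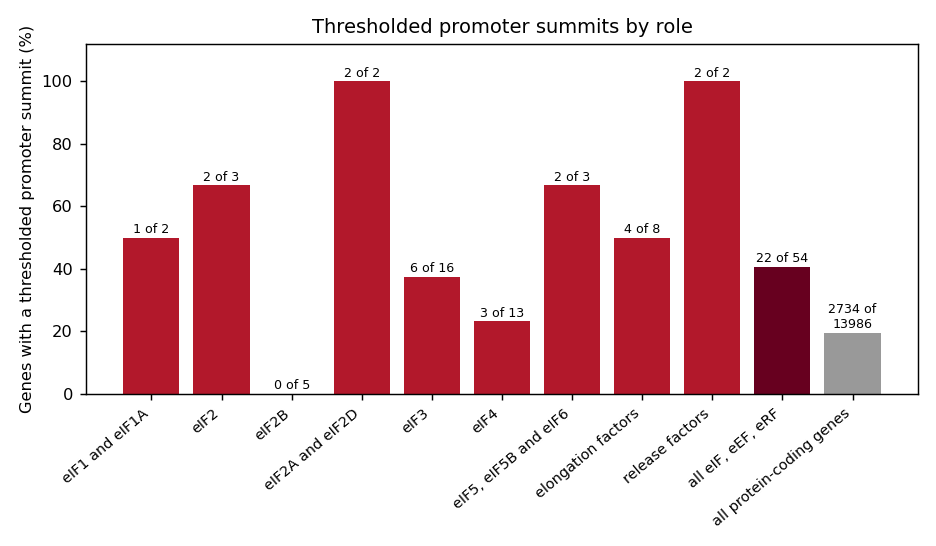
Percentage of genes with a thresholded promoter summit, by role, for all 54 translation factor genes (dark red) and for all protein-coding genes (grey); numbers above the bars give thresholded genes of all genes in each group. Groups hold 2 to 16 genes, and they range from 0 of 5 for eIF2B to 2 of 2 for the release factors, against 19.5% of all protein-coding genes.

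The shares by role rest on few genes each, as the plot of shares by role shows. Families with several gene copies differed within themselves. eEF1alpha1 (207) and eEF1alpha2 (54.1) lay on either side of the threshold, as did eIF4G2 (96.5), known from spermatogenesis, and eIF4G1 (25.8), the copy used in most tissues. eIF3f1 had 105 in the pool, and its copy eIF3f2 had a candidate in replicate 2 alone (15.8, rank 15913). eIF3d1 had 49.9, while eIF3d2 had no candidate, and neither eIF3g1 nor eIF3g2 had one. Of the eIF4E genes, eIF4E3, eIF4E4, eIF4E5 and eIF4E7 had no candidate in any list. How reads that map to several places were treated is not given in the sources used here.

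Most of the 22 genes ranked high in both replicates. The selection favours this, since the thresholded peaks were the strongest of the pool of both replicates. In 16 of the 22 the best promoter peak was among the 4097 strongest of both replicates, a share of 72.7% that was close to the 74.4% of all genes with a thresholded promoter summit (2035 of 2734). The 6 others were each inside in a single replicate. eIF2D, eIF2beta and eIF3m were inside in replicate 2 alone, and eIF3b, eRF1 and eRF3 in replicate 1 alone. Replicate 1 ranked 14 of the 22 genes higher (63.6%), against 53.5% of all genes, and the median log2 ratio of replicate 1 over replicate 2 signal was 0.39 for the 22 genes and 0.25 for all genes. Since the replicate signals are not on a shared scale, that ratio is read beside the ratio for all genes only.

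**Figure D4:**
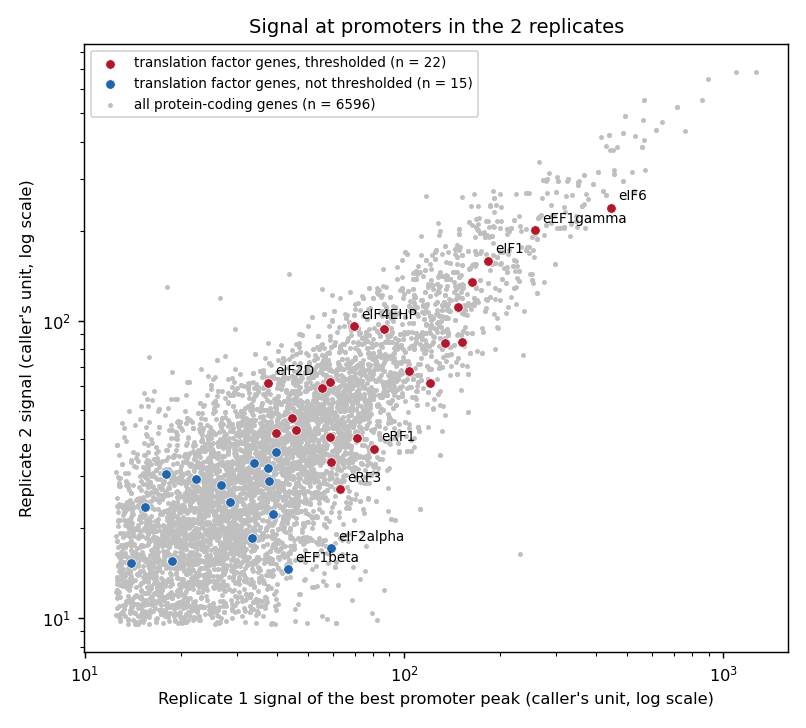
Signal of the best promoter peak in replicate 1 (x axis) and replicate 2 (y axis), both on log scales in the unit of the authors' caller, for thresholded translation factor genes (red, n = 22), translation factor genes below the threshold with a candidate in both replicates (blue, n = 15) and all such protein-coding genes (grey, n = 6596). eIF6 (445 and 240) and eEF1gamma (258 and 201.1) lie at the upper right, and eIF2alpha (58.9 and 17.2) lies low in replicate 2 for its replicate 1 signal.

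Thresholded summits lay close upstream of translation factor start sites. The median summit position was 51 bp upstream for the 22 genes and 95.5 bp upstream for all 2734, and 15 of 22 summits (68.2%) were within 100 bp of the start site, against 1246 of 2734 (45.6%). Upstream summits made up 19 of 22 (86.4%) and 80.1% of all. Over all genes with a candidate, thresholded or not, the medians were close, at 51 bp upstream for the 42 translation factor genes and 56 bp upstream for all 7757. The summits downstream of the start site were those of eIF3h (240 bp downstream), eIF3f1 (11 bp) and eIF4G2 (2 bp). The summits farthest upstream were those of eIF3b (411 bp), eIF1 (339 bp) and eIF2beta (285 bp). Beyond the promoter window, further thresholded peaks lay inside eIF4EHP (2 peaks, the best 164, in a gene of 45884 bp), eIF5B (2 peaks, the best 106) and eIF4G2 (1 peak of 92.2).

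Some of these promoters are shared, and a peak there cannot be assigned to a single gene. Of the 22 thresholded peaks, 10 (45.5%) were also within 500 bp of a start site of another protein-coding gene. The share was 54% of all genes with a thresholded promoter summit. With noncoding genes counted it was 11 of 22 (50%), against 57.2% of all such genes. Sharing was thus no more frequent here than over all genes, and the difference was not tested. At 5 of the 10 peaks the protein-coding partner was nearer to the summit. These were RpL28 (42 bp away, a ribosomal protein gene) at eIF1, CG1074 (3 bp) at eIF3a, Patronin (64 bp, a microtubule minus-end protein gene) at eIF3b, CG8323 (96 bp) at eIF3m and SC35 (56 bp, a splicing factor gene) at eRF3. The peak at eIF1 also lay 461 bp from snoRNA:Or-CD11a, and that at eIF6 lay 69 bp from the antisense RNA gene asRNA:CR45928, nearer than the 98 bp to eIF6 itself.

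At eIF2gamma and eIF4G2 a partner used the same start site. These were Su(var)3-9, a histone methyltransferase gene known to share a first exon with eIF2gamma, and CG33111, and the histone chaperone gene Set lay 89 bp from the summit at eIF2gamma on the opposite strand. The translation factor was the nearer gene at eRF1 (Rbbp5, a histone methyltransferase subunit gene, 377 bp away), eIF4EHP (CG18428, 244 bp) and eIF3h (senju, 303 bp). Peaks at eEF1gamma, eIF3c, eEF2, eEF1alpha1, eEF5, eIF2A, eIF4A, eIF3f1, eIF5B, eIF2beta and eIF2D had no other annotated start site within 500 bp.

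**Figure D5:**
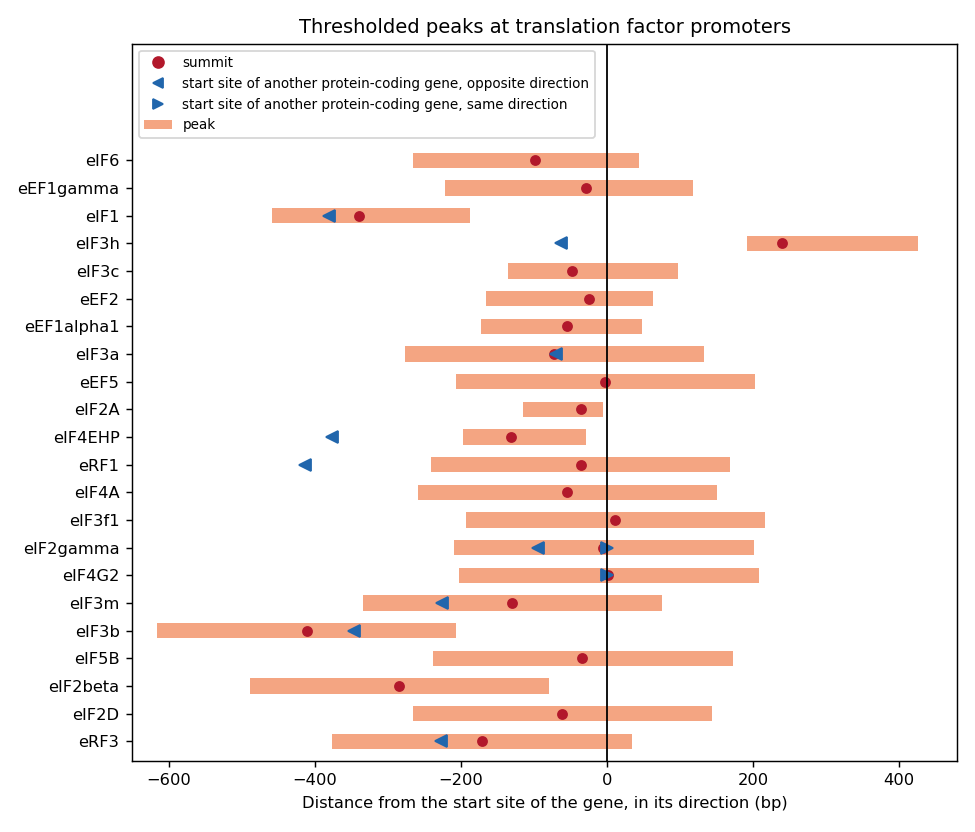
Position of each thresholded promoter peak (orange bars) and its summit (red points) relative to the nearest start site of the translation factor gene, in bp along its direction of transcription, for 22 genes in order of pooled rank; blue arrowheads mark start sites of other protein-coding genes within 500 bp of the summit. Summits range from 411 bp upstream (eIF3b) to 240 bp downstream (eIF3h), and 10 of the 22 genes have an arrowhead.

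The counts by chromosome are small. None of the 7 translation factor genes on X had a thresholded promoter summit, against 389 of 2196 of all protein-coding genes on X (17.7%). A candidate was present at 5 of the 7, against 1307 of the 2196 (59.5%). On the large autosomal arms 4 of 6 translation factor genes on 2L had one, against 18.4% of all genes there, 6 of 13 on 2R (against 19.7%), 5 of 12 on 3L (against 20.1%) and 7 of 15 on 3R (against 21.5%). The single gene on chromosome 4, eIF4G1, had none, against 8.75% of all genes there. The 7 genes on X were eIF2alpha, eIF4H1, eIF5, eIF2Bepsilon, eIF2Bbeta, eIF3g1 and eIF4E7. Of these eIF2alpha came closest, at rank 4124, and it was among the 4097 strongest in replicate 1. The difference between X and the other chromosomes was not tested.

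Genes that regulate or assist the cytosolic factors under other names had 9 thresholded summits among 23 matched genes (39.1%). The share was 40.7% of the translation factor genes and 19.5% of all protein-coding genes. The strongest was Thor (248), the eIF4E-binding repressor, followed by Rack1 (207), the ribosomal scaffold, bel (178), a helicase of initiation, and Lk6 (165), the kinase of eIF4E. Gcn2, a kinase of eIF2alpha, and HBS1, a rescue factor related to eRF3, had 135 each, and Pdcd4 (91.4), NAT1 (89.1) and MCTS1 (86.1) were nearer the threshold. Below it lay the ribosome recycling gene pix (76.3), the poly(A)-binding protein gene pAbp (67.3) and the second eIF2alpha kinase gene PEK (51.4). The recycling factor gene DENR, whose product pairs with MCTS1, had no candidate in any list.

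Factors of mitochondrial translation had no thresholded promoter summit at any of 9 matched genes, against 19.5% of all protein-coding genes. A candidate was present at 6 of the 9 (66.7%), against 55.5% of all protein-coding genes. Its median pooled signal was 47.9, against 60.1 over all genes with a candidate. These counts rest on few genes. mRF1, a mitochondrial release factor gene, was the highest at 76.7. For scale, 70 of 92 cytosolic ribosomal protein genes (76.1%), 11 of 33 aminoacyl-tRNA synthetase genes (33.3%) and 7 of 48 proteasome subunit genes (14.6%) had a thresholded promoter summit. These families were taken by symbol. The synthetases include the mitochondrial ones (symbols ending in -m). The other families include gene copies such as Prosalpha3T, Rpt3R and RpL22-like. The differences between these lists were not tested.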

How the data were processed

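ChIP-seq peak lists of 2 replicates, their pool and the list past the IDR threshold were used on dm6; the same lists on dm3 were not used here. Per the deposited file records, candidate lists hold peaks and background, and all were made against 1 control. The signal in column 7 is the authors' own value for each peak, on a scale that is not stated. The summit is the deposited start (column 2) plus the deposited offset (column 10). The peak caller, aligner, versions and IDR threshold were not given in the sources used here, and neither were read totals, so depth is unknown.

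Start sites of all transcripts came from Ensembl release 115 (annotation 6.54), and sequence from Release 6 of the genome. Each gene received the highest-signal peak whose summit fell 500 bp or less from any of its start sites, and a peak was given to every gene in reach. Ranks were by signal within a list. Motifs were counted within 100 bp of summits and from 250 bases before to 50 after the outermost start site. Assignment was tested on simulated data. Python 3.11.15, pandas 2.3.3, numpy 2.4.6 and matplotlib 3.10.9 were used. No test was made, since 1 group allows none.

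Genes named were those with a thresholded summit, the 3 strongest below it, those with no candidate in any list, those on which replicates differed, and partners at thresholded peaks. Other genes were named by role after their values were seen. The members and lists were chosen with earlier results of these data known. Of 24 regulators listed, 1 (mnk) was left out for want of a match, as was 1 of 10 mitochondrial factors (mEFG2). Alternatives were other windows, start sites, peak assignments, thresholds and single replicates.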

Additional observations from a re-analysis of the deposited data

How the results depend on the processing

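The count of translation factor genes with a thresholded promoter summit was 22 as reported, and 17 to 24 with other windows, start sites, peak assignments and single replicates. The 1000 strongest peaks left 7, beside 5.51% of all genes. The share of all genes was 15% with a window of 200 bp, 22.6% with 1000 bp, 17.5% with the outermost start site, 13.3% where the peak had to cover the start site, and 14.7% with each peak given to its nearest gene. A window of 1000 bp gained eIF2Bbeta and eIF2Bdelta, a window of 200 bp lost eIF1, eIF2beta and eIF3b, and nearest-gene assignment lost eIF1, eIF3a, eIF3b, eIF3m and eRF3. Requiring the top of both replicates, chosen after seeing the data, left 16 genes and 14.7% of all genes.

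Without replicate 2 the count was 20 of 54 genes (37%), beside 19.7% of all genes. Here eIF2D, eIF2beta and eIF3m were lost and eIF2alpha was gained. Without replicate 1 the count was 19 (35.2%), beside 19% of all genes, and eIF3b, eRF1 and eRF3 were lost. Median signal over genes with a candidate, 84.7 as reported, was 72.3 with peaks covering the start site and 72.3 with nearest-gene assignment; on the replicate lists' own scales it was 36.1 to 45.2. Thresholded peaks shared with another gene were 11 of 22 as reported (50%), against 57.2% of all genes with a thresholded promoter summit. They numbered 7 of 19 at 200 bp, 17 of 24 at 1000 bp and 12 of 21 with the outermost start site. With peaks covering the start site they were 7 of 17, and in the 1000 strongest peaks 3 of 7. Single replicates gave 10 of 20 without replicate 2 and 8 of 19 without replicate 1. No share over all genes was available at these other settings, so these counts cannot be set against one. No paired analysis was possible because the series holds 1 group. Unknown depth and the 30000 entries at which each candidate list ends limit every statement that a gene had no candidate.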
